A study of Homo sapiens with 6 samples.

Results

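The genes described here carry LINC symbols, the placeholder names given to long intergenic noncoding RNAs, and were measured in PC3 cells, a human prostate cancer cell line from a bone metastasis. The deposited tables of read counts held 1790 such symbols among 33514 gene symbols in all. At least 10 reads in each of the 6 libraries were required, and 179 LINC genes met this. They were thus chosen by their raw read counts. Of the remaining symbols, 916 had no read in any library. The 179 genes held between 95.2% and 95.9% of all reads on LINC symbols in a library. Cells grown in RPMI medium with serum and antibiotics received 50 µM heme for 2 h (2 libraries) or for 4 h (2 libraries), and 2 libraries came from untreated cells, called control below. Heme, the iron porphyrin of hemoglobin and many enzymes, was added to the medium. The study's title concerns hemopexin, heme on DNA G-quadruplexes and MYC. Whether replicates were grown as separate cultures is not in the labels; p-values therefore reflect how far these libraries spread, and that spread may be technical.

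Long intergenic noncoding RNAs are transcribed by RNA polymerase II and are mostly capped, spliced and polyadenylated like messenger RNAs, but they lack long conserved reading frames. They are usually scarcer than messenger RNAs, and many stay in the nucleus. Some are known to act on the transcription of nearby genes, to scaffold proteins or to bind microRNAs, while for most no function is known. Numbered symbols are often replaced once a role is described. Of the 179 genes, 22 have a newer symbol in RefSeq, among them LINC00284 (now NRAD1, a noncoding RNA of the aldehyde dehydrogenase pathway of breast cancer cells) and LINC01137 (now LITATS1, which restrains TGF-β signalling). GENCODE release 29 (GRCh38) holds 177 of the 179 as a single gene under their symbols. LINC00941 matched several of its genes and LINC01468 none, so both were left without positions and exon lengths. GENCODE types 161 as lincRNA, 14 as antisense, 1 as processed transcript and 1, LINC00672 (now LASP1NB), as protein-coding.

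Starts of 5 genes named in the results below are printed here. No rule picked these 5, and windows of other genes higher at 2 h, among them LINC00284, LINC00623 and LINC00672, are not printed. LINC01547, LINC01137, LINC01629 and LINC02015 were higher after 2 h of heme, and LINC00839 was lower. Each window runs from 250 bases before to 50 bases after the RefSeq start (GRCh38.p14), 5′ to 3′ on the gene's strand. Capitals mark 3 kinds of letters found by search on both strands. The first is TGACNNNGC, the core of the antioxidant response element, which the activator NRF2 and the heme-binding repressor BACH1 share. The second is TGANTCA, the AP-1 element, and the third is the G-quadruplex pattern, 4 runs of GGG with 1 to 7 bases between them.
LINC01547 (chr21:44939864-44940163, minus strand): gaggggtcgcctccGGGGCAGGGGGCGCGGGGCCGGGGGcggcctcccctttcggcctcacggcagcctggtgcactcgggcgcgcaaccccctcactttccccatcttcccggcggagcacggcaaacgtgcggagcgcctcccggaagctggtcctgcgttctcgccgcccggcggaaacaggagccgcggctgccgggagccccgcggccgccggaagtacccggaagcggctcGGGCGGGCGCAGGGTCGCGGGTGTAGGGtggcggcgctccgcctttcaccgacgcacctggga
LINC01137 (chr1:37474394-37474693, minus strand): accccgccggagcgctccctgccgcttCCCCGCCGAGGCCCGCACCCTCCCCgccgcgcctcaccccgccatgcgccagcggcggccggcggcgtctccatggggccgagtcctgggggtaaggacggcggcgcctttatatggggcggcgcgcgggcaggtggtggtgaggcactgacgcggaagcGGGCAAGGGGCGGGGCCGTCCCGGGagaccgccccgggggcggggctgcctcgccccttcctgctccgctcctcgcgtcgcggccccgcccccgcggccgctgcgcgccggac
LINC01629 (chr14:76959388-76959687, plus strand): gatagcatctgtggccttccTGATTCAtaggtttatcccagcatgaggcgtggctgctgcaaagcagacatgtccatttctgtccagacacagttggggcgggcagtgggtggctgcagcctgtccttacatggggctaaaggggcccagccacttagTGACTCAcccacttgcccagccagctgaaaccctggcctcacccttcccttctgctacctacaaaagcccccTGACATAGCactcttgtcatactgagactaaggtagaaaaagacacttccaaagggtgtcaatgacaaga
LINC02015 (chr3:177816615-177816914, plus strand): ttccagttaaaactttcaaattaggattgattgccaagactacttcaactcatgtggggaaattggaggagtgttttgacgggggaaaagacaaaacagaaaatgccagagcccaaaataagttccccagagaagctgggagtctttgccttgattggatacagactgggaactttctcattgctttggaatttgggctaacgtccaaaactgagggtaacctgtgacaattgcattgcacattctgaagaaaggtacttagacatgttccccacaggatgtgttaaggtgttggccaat
LINC00839 (chr10:42475241-42475540, plus strand): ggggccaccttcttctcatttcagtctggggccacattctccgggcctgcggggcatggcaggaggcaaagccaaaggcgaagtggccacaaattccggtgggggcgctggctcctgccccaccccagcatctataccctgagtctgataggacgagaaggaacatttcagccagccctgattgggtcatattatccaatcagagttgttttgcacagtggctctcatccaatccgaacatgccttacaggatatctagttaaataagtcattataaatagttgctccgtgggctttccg

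The window of LINC01547 held overlapping G-quadruplex patterns in 2 places on its own strand, and that of LINC01137 held them on both strands. The window of LINC01629 held an antioxidant core that begins 20 bases before the start, together with 2 AP-1 elements. In the windows of LINC02015 and LINC00839 none of these letters occurred. Across the 129 LINC genes with a window in the RefSeq table (19 of them through a newer symbol), the antioxidant core occurred in 14.7%, against 13.6% of all 27305 promoters. Of the 27 windows of genes higher at 2 h, 8 held it, and of the 102 other LINC windows 11 did. AP-1 letters occurred in 18.6% of the LINC windows against 7.76% of all promoters, but in 5 of the 27 and 19 of the 102. The G-quadruplex pattern was found in 21.7% against 24.1%, and in 6 of the 27 and 22 of the 102. The letters TGACGT, which cAMP response elements contain, were in 10.1% of the LINC windows against 8.32% of all, and in 4 of the 27 and 9 of the 102. An antioxidant core can overlap TGACGT. The median GC content of the windows was 54.3% for the genes higher at 2 h, 55.5% for the other LINC genes and 58.3% for all promoters. These counts describe letters in a window and carry no test.

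Depth was alike, with 53129375 to 55537611 reads on genes per library. HMOX1, the heme-degrading enzyme, stood at 451 and 328 CPM (counts per 1000000 reads, on library sizes scaled by edgeR's TMM method) after 2 h and 382 and 341 CPM after 4 h, against 10.4 and 11.4 CPM in control. Both exposures were far above control for this gene (log2 5.16, SE 0.16, edgeR adjusted p = 3.79e-11 at 2 h). The keratin, EPCAM and CDH1 transcripts of PC3 cells summed to between 2134 and 2429 CPM in every library, and the prostate genes KLK3 and FOLH1 had no reads. Of the 5 fibroblast markers, the sum was 41.5 to 48.4 CPM at 2 h and 26.4 to 29.1 CPM in control, nearly all from COL1A1, while COL1A2, COL3A1, DCN and LUM had at most 4 reads each. The 4 endothelial markers summed to 33.2 to 40.8 CPM at 2 h and 20.2 to 20.8 CPM in control, nearly all from PECAM1. Among blood markers, CD14 was higher at 2 h (log2 1.87, edgeR adjusted p = 0.00135) with 21 to 145 reads per library, CD68 did not pass the test (log2 0.10, edgeR adjusted p = 0.527), and PTPRC and CD3E had at most 5 reads each. Their part in the results on LINC genes was not tested. In RNA of whole cultures, fewer cells of a kind and less RNA per cell cannot be told apart.

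LINC genes were scarce. Their mean over the 6 libraries was at most 1 CPM for 72 genes and above 10 CPM for 15, and 39 had a lowest count between 10 and 19 reads. On a scale per kilobase of summed exons, the median of the 177 annotated genes was 0.678 CPM per kilobase. LINC00973 led with 39.5, followed by LINC00857 with 27.8, LINC02015 with 22.9, LINC00839 with 13.6 and LINC01629 with 11.02 CPM per kilobase. LINC00941, with 28.9 to 38.6 CPM per library, had no exon length and could not be placed in this order. Just inside the limit of 10 reads lay LINC01312 with 10 to 16 reads per library, LINC02018 with 10 to 15 and LINC02289 with 10 to 39. Just outside it lay LINC00243 with 9 to 64 reads, LINC02178 with 9 to 27 and LINC00524 with 9 to 22. Reads of 67 genes may be shared, since their exons overlap an exon of another gene and the strand setting of the counting is not given in the sources used here. A transcript at least 95% identical over at least 50% of its length exists elsewhere for 8 genes, among them LINC00623.

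After 2 h of heme, LINC genes that changed were nearly all higher. Of the 179, 36 were higher than in control (20.1%) and 2 were lower (1.12%) by edgeR's quasi-likelihood test at a Benjamini-Hochberg adjusted p under 0.05, and 141 did not pass. Among all 16209 genes tested, 15.9% were higher and 15.8% lower, 31.7% in all. The median log2 difference of the LINC genes was 0.30 at 2 h against control, with quartiles at -0.07 and 0.73, and 129 of the 179 (72.1%) lay above 0. Over all genes tested the median was 0.02 and 51.6% lay above 0. Both 2 h libraries were above both controls for 85 LINC genes (47.5%, against 34.6% of all genes) and below both for 24 (13.4%, against 33.2%). The standard error had a median of 0.30 for LINC genes and 0.14 for all genes, so the same difference was harder to call in the LINC genes.

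**Figure D1:**
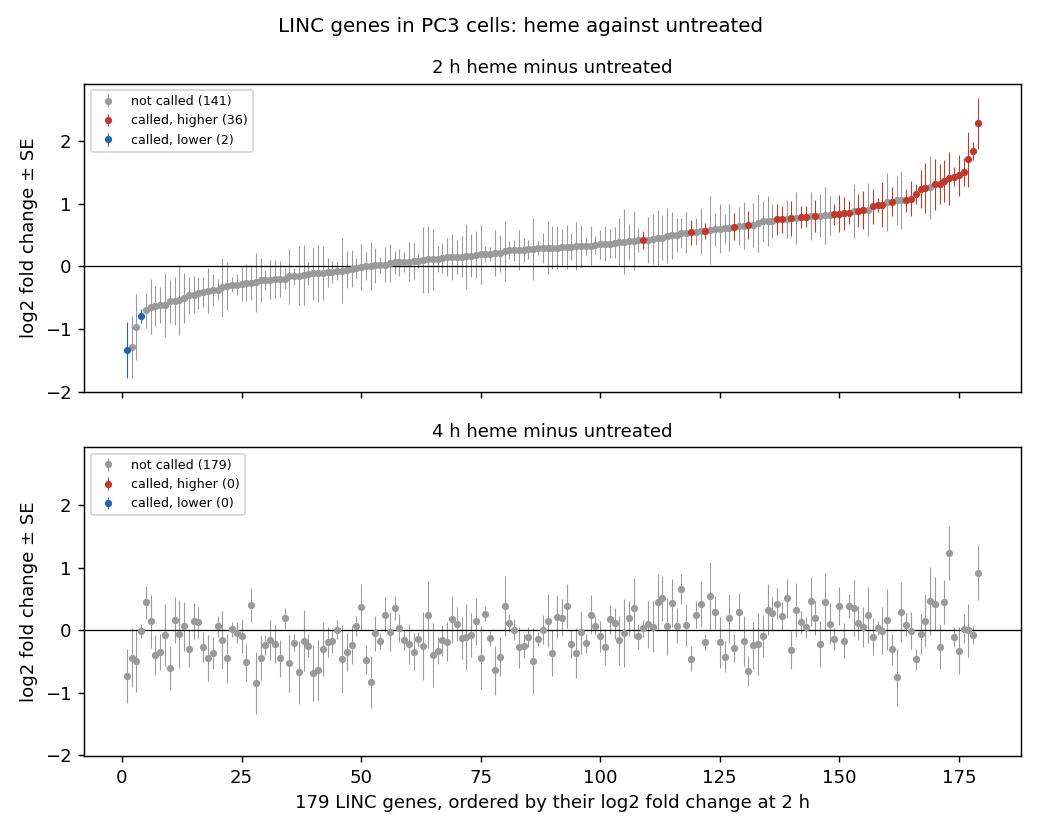
Log2 fold change with its standard error for each of the 179 LINC genes, 2 h heme minus untreated (top) and 4 h heme minus untreated (bottom), both in the order of the 2 h values. At 2 h, 36 genes were called higher (red) and 2 lower (blue); at 4 h none was called.

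The count of called LINC genes at 2 h was 38 with all libraries, 20 without control replicate 1, 18 without control replicate 2, 24 without 2 h replicate 1 and 41 without 2 h replicate 2. The share of all genes called moved the same way, to 13.7%, 17.7%, 23.0% and 37.4%. A change beyond 1.5-fold was called for 6 LINC genes (3.35%, beside 3.29% of all genes; glmTreat): LINC00284, LINC00623, LINC00672, LINC01547, LINC01629 and LINC02015. Those 6 and LINC00649, LINC00663, LINC00847, LINC01006 and LINC01137 were called higher at 2 h under each of 11 other settings of the all-gene test.

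The summed level of the 179 genes was 852 and 819 CPM at 2 h, against 648 and 675 CPM in control. A few abundant genes carried most of the difference. LINC02015 made up 29.02% of it, LINC01547 11.7%, LINC00284 8.76% and LINC00857 7.48%, while LINC00839 ran the other way with -8.996%.

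Among the abundant genes that rose, LINC01547 changed most. It lies on chromosome 21 from 44932814 to 44939913 on the minus strand. Its level was 28.3 and 28.3 CPM at 2 h, against 7.81 and 8.004 CPM in control (log2 1.84, SE 0.15, edgeR adjusted p = 1.13e-06). At 4 h it was 6.62 and 8.37 CPM, around the control libraries and far below the 2 h libraries. LINC02015, the most abundant LINC gene by mean CPM (chromosome 3, 177816865 to 177899224), stood at 108 and 96.5 CPM at 2 h, against 50.2 and 53.1 CPM in control (log2 0.98, SE 0.11, edgeR adjusted p = 2.17e-05). Its 4 h libraries, at 55.5 and 50.3 CPM, overlapped the controls. LINC00284 (NRAD1; chromosome 13, 43908669 to 44030461) had 27.0 and 21.3 CPM at 2 h, against 9.57 and 8.32 CPM in control (log2 1.43, SE 0.15, edgeR adjusted p = 1.91e-05). At 4 h LINC00284 was at 8.74 and 7.85 CPM, overlapping the controls.

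LINC01629 (chromosome 14, 76959638 to 76965802), whose start region holds the antioxidant core shown above, had 11.4 and 10.2 CPM at 2 h, against 4.86 and 4.87 CPM in control (log2 1.15, SE 0.16, edgeR adjusted p = 0.000135). Both of its 4 h libraries, 3.58 and 3.48 CPM, lay below both controls, but that difference did not pass the test (log2 -0.46, SE 0.17, edgeR adjusted p = 0.99995). A second LINC gene of this stretch of chromosome 14, LINC02288 (77041064 to 77069503), had 3.19 and 3.13 CPM at 2 h, against 1.66 and 1.43 CPM in control (log2 1.03, edgeR adjusted p = 0.00403). LINC02289 overlaps it on the other strand and had 0.688 and 0.365 CPM at 2 h, against 0.251 and 0.185 CPM in control (log2 1.26, SE 0.51, edgeR adjusted p = 0.071). Its 2 h libraries lay above the controls without passing the test. Reads over the exon bases that LINC02288 and LINC02289 share may be in either count or among the ambiguous reads, which was not tested.

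LINC00623 (chromosome 1, 120913275 to 121009291) had 6.399 and 5.05 CPM at 2 h, against 1.83 and 2.17 CPM in control (log2 1.52, SE 0.22, edgeR adjusted p = 0.000229). Its value is uncertain, because a transcript of LINC01145 matches it at 99.2% identity over 64% of its length. LINC01137 (LITATS1) was also higher (log2 1.06), and it is taken up with its neighbour below.

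The other large rises were in scarce genes. LINC00672 (LASP1NB, chromosome 17, 38925168 to 38929384), which lies beside the actin-binding protein gene LASP1, had 1.87 and 1.01 CPM at 2 h, against 0.289 and 0.296 CPM in control (log2 2.29, SE 0.41, edgeR adjusted p = 0.000914). This was the highest log2 difference of the 179 genes, on a low level. Its 4 h libraries, 0.504 and 0.608 CPM, lay between those of 2 h and control (log2 0.92 at 4 h against control, SE 0.44, edgeR adjusted p = 0.99995). LINC02340 (chromosome 13, 27178263 to 27251288) had 0.776 and 1.02 CPM at 2 h, against 0.212 and 0.334 CPM in control (log2 1.71, SE 0.44, edgeR adjusted p = 0.00900). LINC00663 had 1.85 and 1.48 CPM at 2 h, against 0.675 and 0.537 CPM in control (log2 1.45, SE 0.33, edgeR adjusted p = 0.00468). For each of these genes the 2 h libraries stood clear of the controls.

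LINC01607 on chromosome 8 had 1.41 and 0.903 CPM at 2 h, against 0.309 and 0.556 CPM in control (log2 1.41, SE 0.42, edgeR adjusted p = 0.0206). Its 4 h values, 1.34 and 0.719 CPM, also lay above both controls (log2 1.24, SE 0.43, edgeR adjusted p = 0.99995), without passing the test. Among the 12 largest rises this arrangement at 4 h was found for 3 genes, LINC01607, LINC00672 and LINC01710 (log2 0.45 at 4 h against control). None of these 3 passed the test at 4 h. Both 4 h libraries lay above both controls for 17% of all genes tested. Of the 5 remaining genes among the 12 largest rises, LINC01710 (log2 1.36), LINC01460 (log2 1.32) and LINC01239 (log2 1.24) had both 2 h libraries between 1.304 and 2.31 CPM. LINC00910 (log2 1.31), whose exons overlap the small RNA pseudogene RNU2-4P, and LINC00472 (log2 1.26), described as a growth-restraining RNA in breast cancer, had 2 h libraries further apart. LINC00472 had 0.793 and 1.56 CPM at 2 h, against 0.501 and 0.482 CPM in control, and its log2 difference was 0.67 without 2 h replicate 2 (edgeR adjusted p = 0.289).

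Several of these scarce rises were not called once a library was left out, mostly with log2 differences above 1. Without control replicate 1, LINC02340, LINC01607, LINC01710, LINC01460, LINC00910 and LINC00472 no longer passed the test at 2 h, with log2 differences from 1.05 to 1.42 in that fit. Without control replicate 2, LINC00910, LINC00472 and LINC01239 did not pass, and without 2 h replicate 1 LINC01607 and LINC00910 did not. In the 24 further genes called higher, log2 differences ran from 0.42 to 1.15 and adjusted p-values of edgeR's test reached 0.0499.

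**Figure D2:**
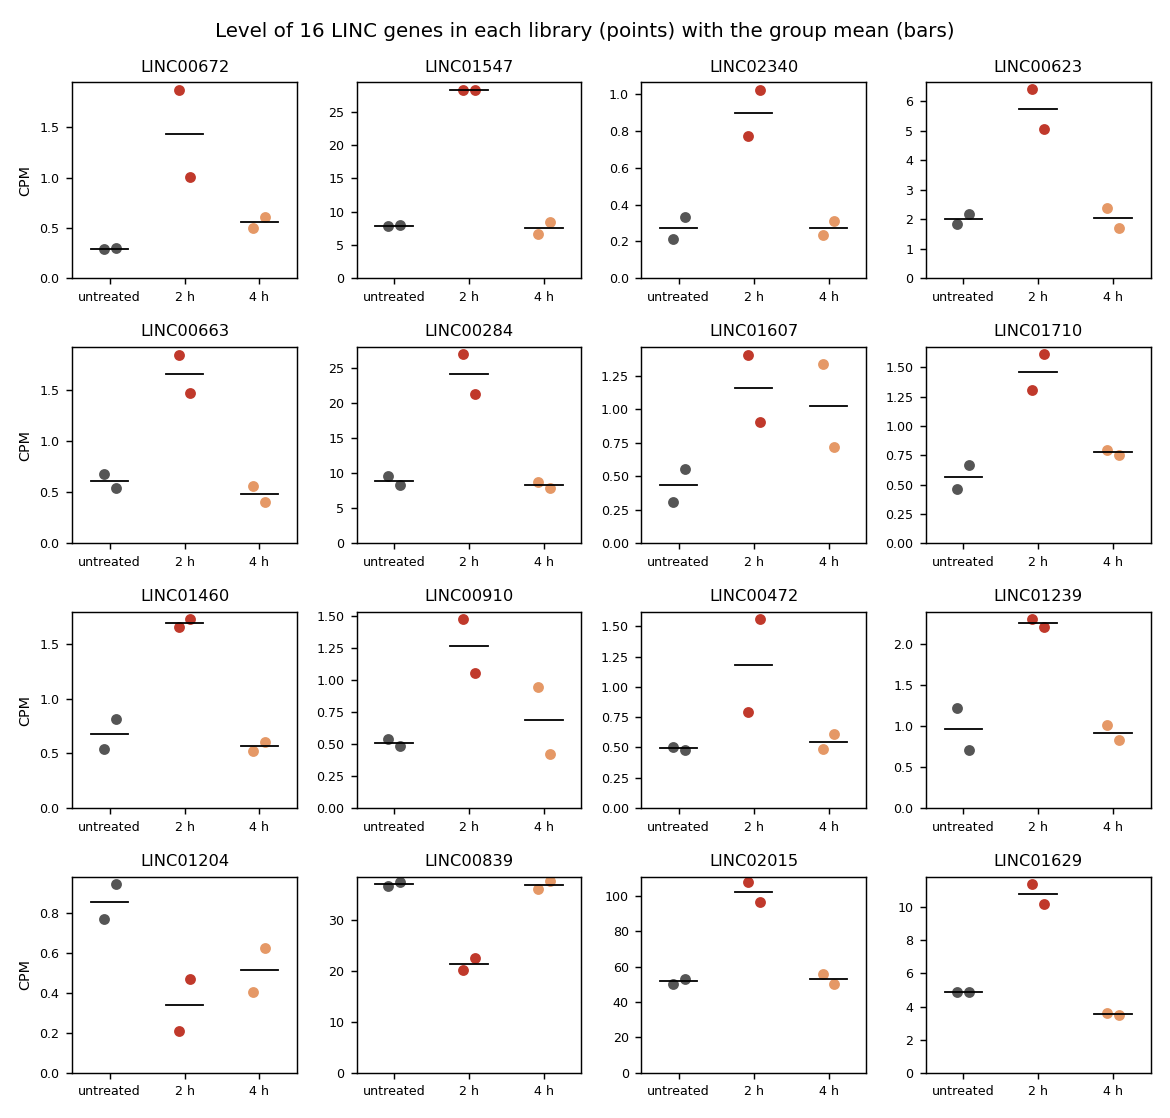
Level in CPM of 16 LINC genes in each library of untreated cells and cells after 2 h and 4 h of heme (points; bars are group means, linear axes from 0). LINC01547 stood at 28.3 CPM in both 2 h libraries and between 6.62 and 8.37 CPM elsewhere, LINC00839 ran the other way, and LINC01607 had 4 h libraries above both controls.

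Lower LINC genes at 2 h were LINC00839 and LINC01204. LINC00839 (chromosome 10, 42475543 to 42495336) had 20.1 and 22.6 CPM at 2 h, against 36.6 and 37.4 CPM in control (log2 -0.79, SE 0.12, edgeR adjusted p = 0.000222). At 4 h it had 36.1 and 37.5 CPM, overlapping the controls. LINC01204 on the X chromosome had 0.212 and 0.469 CPM at 2 h, against 0.771 and 0.945 CPM in control (log2 -1.33, SE 0.45, edgeR adjusted p = 0.0347). It did not pass by DESeq2, without either control library (log2 -1.47 without replicate 1, -1.20 without replicate 2), nor without 2 h replicate 1 (log2 -0.87), and it stood at -2.03 on the log2 scale without 2 h replicate 2.

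Of the 5 most abundant LINC genes by mean CPM, LINC02015 alone was called at 2 h. LINC00857 had 77.1 and 64.4 CPM at 2 h, against 56.002 and 59.5 CPM in control (log2 0.29, SE 0.11, edgeR adjusted p = 0.0601). LINC01184, now SLC12A2-DT, had 42.6 and 43.2 CPM at 2 h, against 35.1 and 39.5 CPM in control (log2 0.20, edgeR adjusted p = 0.202). For both genes the 2 h libraries lay above the controls without passing the test. LINC00973 had 38.4 and 43.4 CPM at 2 h, against 37.1 and 39.6 CPM in control (log2 0.09, edgeR adjusted p = 0.589), and its groups overlapped. LINC00941, an RNA described in several carcinomas, had 28.9 and 29.6 CPM at 2 h, against 33.4 and 38.2 CPM in control (log2 -0.29, edgeR adjusted p = 0.0797).

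LINC genes with a described product or role were looked up by name: 17 symbols, of which 6 had a row in the tables and 3 were among the 179. The search used the LINC symbols only, so a gene entered under a newer name would not be found. None of the 3 passed the test at 2 h. LINC00467, which encodes a small mitochondrial protein of the ATP synthase, had 19.4 and 16.8 CPM at 2 h, against 20.1 and 20.3 CPM in control (log2 -0.16). LINC00460 had 1.41 and 1.46 CPM at 2 h, against 1.89 and 1.85 CPM in control (log2 -0.38, edgeR adjusted p = 0.272), and LINC00941 is given above. LINC00473, a target of cAMP signalling, had no read in any library.

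The higher share among LINC genes at 2 h was close to that of protein-coding genes of the same abundance. Protein-coding genes with at least 10 reads in every library (9184 genes in the abundance range of the LINC genes) were weighted to the same mix over 4 abundance bands. Of them 18.4% were higher and 6.58% lower at 2 h, against 20.1% and 1.12% of the LINC genes. Their weighted median log2 difference was 0.24 and 64.0% lay above 0, against 0.30 and 72.1% for the LINC genes. Median standard errors were 0.45 for LINC and 0.45 for protein-coding genes in the lowest band, 0.35 and 0.35 in the second, 0.27 and 0.26 in the third, and 0.16 and 0.13 in the highest. With 10 bands instead of 4, the protein-coding shares were 19.1% higher and 4.89% lower, with a median of 0.26. Scarce genes of both kinds thus leaned upward at 2 h.

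The bands differed among themselves. In the lowest, from 0.261 to 0.725 CPM, 1 of 45 LINC genes was higher, against 9.89% of 566 protein-coding genes. In the second band 11 of 44 LINC genes were higher, against 20.1% of 517, and in the third 8 of 45, against 24.9% of 731. In the highest, from 2.80 to 68.9 CPM, 16 of 45 LINC genes were higher and 1 was lower, against 18.6% higher and 19.5% lower among 7370 protein-coding genes. The median log2 difference in this band was 0.27 for LINC genes and -0.02 for protein-coding genes. In the highest of the 4 bands, LINC genes thus had a larger share of rises and a smaller share of falls than protein-coding genes. Abundance was not equal within this band. From 8.28 CPM upward lay 5975 of its 7370 protein-coding genes but 18 of its 45 LINC genes. The separation was not tested. With 10 bands, the top 2 hold most of that range. From 3.56 to 8.28 CPM, 7 of 18 LINC genes were higher and 0 lower, against 26.1% and 8.39% of 1132 protein-coding genes. From 8.28 to 68.9 CPM, 5 of 18 were higher and 1 lower, against 16.8% and 22.3% of 5975. Lower bands went either way. From 2.26 to 3.56 CPM, 27.8% of 18 LINC genes were higher, against 28.2% of 475 protein-coding genes. From 0.795 to 1.03 CPM, 38.9% of 18 were higher, against 23.0% of 248. From 0.658 to 0.795 CPM, 5.56% of 18 were higher, against 20.9% of 158.

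**Figure D3:**
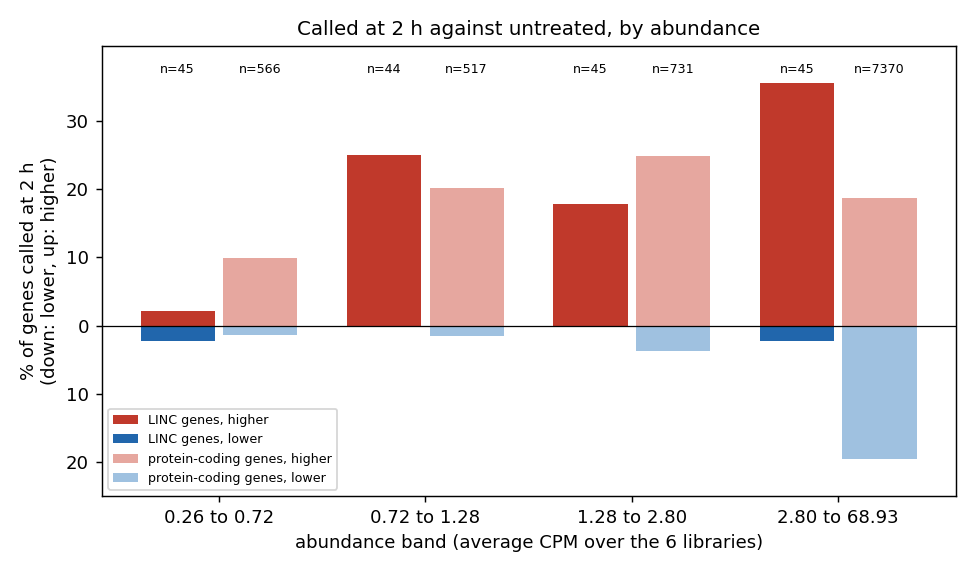
Share of LINC genes (dark) and of protein-coding genes (light) called higher (upward bars) and lower (downward bars) after 2 h of heme against untreated, in 4 bands of average CPM, with the number of genes above each bar. In the highest band 16 of 45 LINC genes were higher and 1 lower, against 18.6% and 19.5% of 7370 protein-coding genes.

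Noncoding genes without a LINC number gave values on the same side. Of 776 lincRNA genes of GENCODE with another symbol, 13.4% were higher and 3.22% lower at 2 h, with a median log2 difference of 0.27. Among the LINC genes, 27 of the 88 with summed exons longer than 2377 bases were higher, against 9 of the 89 with shorter exons, and the longer genes had the higher median level (1.89 CPM against 0.872 CPM). Genes whose exons touch no other gene were higher in 23 of 110 cases, and those with an overlap in 13 of 67. Antisense genes were higher in 3 of 14 cases.

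After 4 h of heme no LINC gene differed from control by edgeR's test with Benjamini-Hochberg adjustment, and none did by DESeq2. Of all genes tested 0.0308% were called, 5 genes in all. At an unadjusted p under 0.05 there were 6 LINC genes, 3 higher and 3 lower, which is 3.35% against 3.60% of all genes. The median log2 difference of the LINC genes was -0.06 at 4 h against control, beside 0.00 over all genes, and the summed level was 656 and 623 CPM at 4 h, against 648 and 675 CPM in control. Both 4 h libraries lay above both controls for 31 LINC genes (17.3%, against 17% of all genes) and below both for 47 (26.3%, against 17.4%). HMOX1 stayed high at 4 h (log2 5.05, SE 0.15, edgeR adjusted p = 4.84e-11).

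Between the exposures, LINC genes were mostly lower at 4 h than at 2 h. Of the 179, 33 were lower (18.4%) and 2 higher (1.12%) by edgeR's test, beside 14.1% lower and 14% higher among all genes and 28.1% in all. The median log2 difference of 4 h against 2 h was -0.34 for LINC genes and -0.03 for all genes, and -0.24 for protein-coding genes weighted to equal abundance, of which 16.04% were lower and 6.16% higher. Without either 4 h library the count of called LINC genes was 23 in place of 35, and the share of all genes called was 13.0% without replicate 1 and 20.5% without replicate 2. This comparison shares the 2 h libraries with the first, so these comparisons are not independent. For the 36 genes higher at 2 h, the 2 h libraries were high by choice. Both 4 h libraries lay below both 2 h libraries in 34 of them, and 27 passed the test as lower. How often this held among all genes called higher at 2 h is not given here. Against control, the 4 h libraries of these 36 genes lay above both controls for 8, below both for 8 and in between or across for 20, with log2 differences from -0.65 to 1.24 and a median of 0.01.

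The largest falls of 4 h against 2 h were those of LINC01547 (log2 -1.91, SE 0.15, edgeR adjusted p = 7.81e-07), LINC00943, LINC00663 (log2 -1.78), LINC02340 (log2 -1.71) and LINC01629 (log2 -1.61, SE 0.16, edgeR adjusted p = 1.08e-05). LINC00943 had 0.445 and 0.184 CPM at 4 h, against 1.08 and 1.13 CPM at 2 h (log2 -1.81, SE 0.42, edgeR adjusted p = 0.00566), while control had 0.521 and 0.537 CPM. It did not pass the test without 4 h replicate 2 (log2 -1.28). Without 4 h replicate 1 LINC02340 did not pass. Higher at 4 h than at 2 h were LINC00839 (log2 0.78, SE 0.12, edgeR adjusted p = 0.000236) and LINC00632. LINC00632, whose locus gives rise to the circular RNA of the CDR1 antisense strand, had 1.99 and 1.99 CPM at 4 h, against 0.793 and 1.01 CPM at 2 h (log2 1.14, SE 0.27, edgeR adjusted p = 0.00588), with 1.48 and 1.45 CPM in control. Its exons overlap CDR1 on the other strand, and how reads over the shared bases were counted is not given in the labels.

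Nearby protein-coding genes were compared because some LINC genes share a start region with a neighbour. The nearest protein-coding gene was tested for 138 of the LINC genes. Among the 32 of these that were higher at 2 h, the neighbour was higher for 10, lower for 5 and not called for 17. Of all protein-coding genes tested 16.6% were higher, and of all genes tested 15.8% were lower. Among the other 106, the neighbour was higher for 17. A neighbour shared by LINC genes was counted once for each of them. This was so for IRF2BPL, shared by LINC01629 and LINC02288, and for CEBPB among the other 106. Across the 138 genes, log2 differences of a LINC gene and its neighbour had a Spearman coefficient of 0.12 and a Pearson coefficient of 0.03, both from the same libraries and given as a description.

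**Figure D4:**
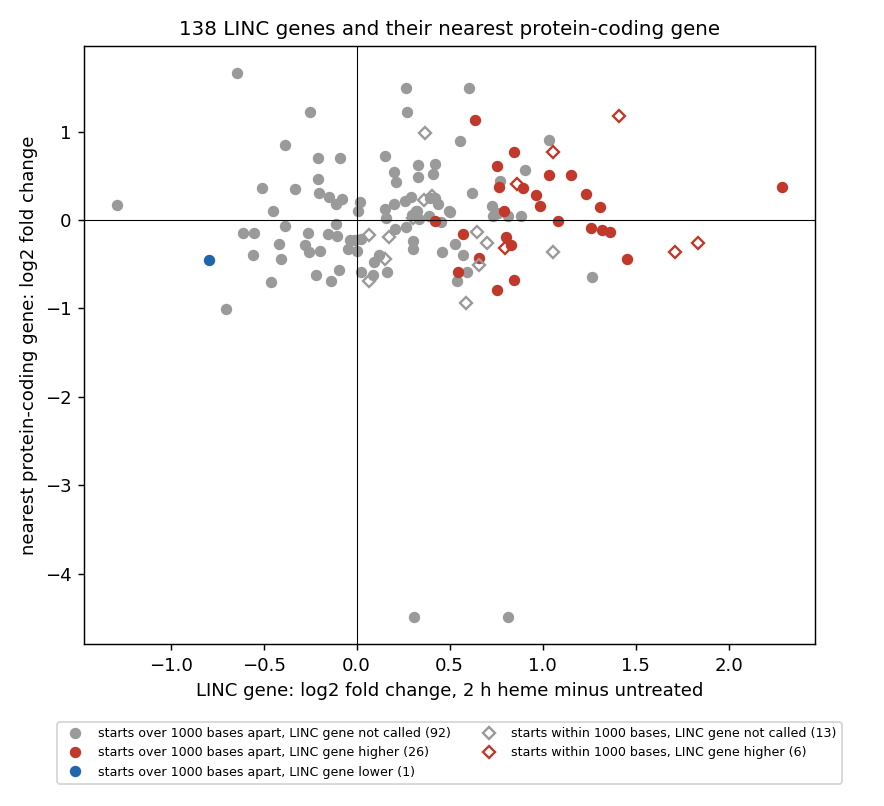
Log2 fold change at 2 h heme minus untreated of 138 LINC genes (horizontal) and of their nearest protein-coding gene (vertical), with diamonds for starts within 1000 bases of each other and red for LINC genes called higher. Of 32 LINC genes called higher, 10 had a neighbour called higher and 5 a neighbour called lower.

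Divergent starts within 1000 bases, without overlap between the genes, occurred in 11 of these LINC genes, of which 4 were higher at 2 h. In any orientation, overlapping pairs included, starts lay this close for 19 LINC genes, of which 6 were higher. For these 19 the neighbour was higher for 3 and lower for 7. LINC01137, 141 bases from the start of ZC3H12A, and its neighbour, an endoribonuclease of inflammatory messenger RNAs, were both higher (log2 1.06 for LINC01137, log2 0.77 for ZC3H12A with edgeR adjusted p = 8.79e-05). LINC01607 starts 279 bases from HEY1, a transcriptional repressor downstream of Notch, and both were higher at 2 h (log2 1.41 for LINC01607, log2 1.18 for HEY1 with edgeR adjusted p = 0.00308). At 4 h HEY1 was lower than at 2 h (log2 -0.94, edgeR adjusted p = 0.0115), whereas LINC01607 was not called (log2 -0.17, edgeR adjusted p = 0.775).

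For the other 2 of these 4 LINC genes, the divergent neighbour was not higher. LINC01547 starts 97 bases from FAM207A, which had a log2 difference of -0.26 at 2 h against control (SE 0.13, edgeR adjusted p = 0.137), beside 1.84 for LINC01547. LINC02340 starts 21 bases from RPL21, a protein of the large ribosomal subunit, which was lower at 2 h (log2 -0.36, edgeR adjusted p = 0.0227), beside 1.71 for LINC02340. Of the 7 divergent LINC genes that were not higher, the neighbour was higher for 1. This was LINC02588 (log2 0.37), beside NOVA1, an RNA-binding protein gene (log2 0.99, edgeR adjusted p = 0.0339). Over all 11 divergent pairs, the neighbour was higher for 3 and lower for 4. Besides RPL21, the lower neighbours were C1orf174 (log2 -0.51), PATZ1 (log2 -0.36) and CHD1 (log2 -0.93). Their LINC genes, LINC01134 (log2 0.66), LINC01521 (log2 1.06) and LINC02062 (log2 0.59), were not called. Outside the divergent group, LINC00649 overlaps ATP5PO, a subunit of the mitochondrial ATP synthase, on the other strand. It was higher at 2 h, with 8.16 and 8.08 CPM against 4.69 and 4.65 CPM in control (log2 0.80), while ATP5PO was lower (log2 -0.32, edgeR adjusted p = 0.0312).

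Some neighbours at a distance were higher together with the LINC gene at 2 h. These were EYA4 (log2 1.14), 134020 bases from LINC00326, and SMOX (log2 0.77), which encodes spermine oxidase, 5318 bases from LINC01433. LASP1 (log2 0.38), 3398 bases from LINC00672, was another. HNRNPR, which encodes an RNA-binding protein and lies 17019 bases from LINC01355, was lower (log2 -0.43 for HNRNPR) while LINC01355 was higher (log2 0.66). IRF2BPL, the nearest protein-coding gene of both LINC01629 and LINC02288, was higher at 2 h (log2 0.51, SE 0.11, edgeR adjusted p = 0.00352). It lies 58741 bases from LINC01629 and 12365 bases from LINC02288. These neighbours outside the divergent group were chosen for naming after their values were seen.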

How the data were processed

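Raw read counts per gene symbol were deposited by the authors as 1 table per library, with HTSeq summary lines per the file headers. Total RNA had been isolated with Trizol and made into libraries with a TruSeq kit, per the labels' protocols. Per the submitters' processing notes, the tools were STAR, Trimmomatic, SAMtools and deepTools, with hg38 as the build. Their versions, the annotation release and the strand setting are not stated in those sources. Summary lines were dropped before any library size was computed. Reads outside genes were 5.48% to 6.88% and ambiguous reads 4.23% to 4.48% of a library.

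Counts were tested with edgeR 4.0.16 in R 4.3.3 (TMM, filterByExpr with a minimum count of 10, quasi-likelihood test, 16209 genes, all 6 libraries in 1 fit with 3 residual degrees of freedom), two-sided, with Benjamini-Hochberg adjustment over all genes and a threshold of 0.05. All 179 LINC genes were among the genes tested. Log2 differences are the fitted values, n = 2 libraries per group, with standard errors (SE) derived from the F statistic. The test was also run on simulated counts with few changed genes. That outcome is not given here and bears on none of the calls. Alternatives were DESeq2 1.42.0, its size factors, no filter, a replicate block, only the compared groups, glmTreat, other member limits, members without exon overlap, other abundance bands and leaving out each library. Positions and exon lengths are from GENCODE release 29 (GRCh38), promoter windows from RefSeq (GRCh38.p14).

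The LINC genes, lists and rules were chosen with earlier results of these data known. Genes were named by rule: the 12 largest called rises and falls at 2 h, all called at 4 h, the 5 with the highest mean CPM, the 5 largest called in each direction at 4 h against 2 h, the listed genes and those next to the limit of 10 reads. Genes named beyond the rule are LINC02288, LINC00649, LINC01137, LINC00847, LINC01006, LINC00326, LINC01433, LINC01355, LINC02588, LINC01134, LINC01521 and LINC02062, chosen after their values were seen. LINC01468 is named only for its missing match in GENCODE. Within groups, replicate counts differed beyond sampling noise (chi-square per gene from 9.11 to 34.2), and each library was kept as its own sample. The labels name no batch.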

Additional observations from a re-analysis of the deposited data

Results flagged for a closer look

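Heme for 4 h and heme for 2 h gave different levels by a direct edgeR test (Benjamini-Hochberg adjusted) for 35 LINC genes, 33 of them lower at 4 h. The log2 differences of 4 h against 2 h for named genes were -1.36 for LINC00672, -1.91 for LINC01547, -1.71 for LINC02340, -1.49 for LINC00623, -1.78 for LINC00663, -1.54 for LINC00284, -0.91 for LINC01710, -1.58 for LINC01460, -1.10 for LINC00472 and -1.30 for LINC01239. They were -0.95 for LINC02015, -0.43 for LINC00857, -0.33 for LINC01184, -1.81 for LINC00943 and -1.61 for LINC01629. Only 2 values were positive, 0.78 for LINC00839 and 1.14 for LINC00632, the genes called higher at 4 h.

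LINC01547, LINC00623, LINC00663, LINC00284, LINC01460, LINC02015, LINC01629, LINC00839 and LINC00632 passed this test under each of 11 other settings. LINC01710 and LINC01184 passed under 1 of 11 each. LINC00472 fell by 0.51 on the log2 scale without 2 h replicate 2, and LINC00672 fell by 0.85 without 2 h replicate 1. Neither passed there, nor without either 4 h library. LINC00472 also did not pass with DESeq2 or with its size factors. LINC00857 did not pass without 2 h replicate 1 nor without either 4 h library, and LINC01239 did not pass without 4 h replicate 2. With 2 libraries per group, no single library could be tested as standing apart from its group.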

How the results depend on the processing

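The direction of the 2 h differences and of the 4 h against 2 h differences of the LINC genes, as medians, was the same under all settings run. A change beyond 1.5-fold was called for 6 LINC genes at 2 h, beside 3.29% of all genes. At 4 h against 2 h it was called for 9, beside 3.35% of all genes. DESeq2 called 30 LINC genes at 2 h, beside 33.2% of the genes it tested. Leaving out each library gave 18 to 41 calls at 2 h, 23 to 36 at 4 h against 2 h, and 0 at 4 h against control, with medians of 0.28 to 0.35, -0.35 to -0.31 and -0.059 to 0.00502 (the positive value without control replicate 2). The 110 genes without exon overlap gave 25 calls and a median of 0.37 at 2 h, and 23 calls and -0.37 at 4 h against 2 h. The 2 h median was 0.28 with no filter, 0.33 for the 224 genes with at least 5 reads in every library and 0.33 for the 231 with a mean of at least 10 reads. The 4 h against 2 h median was -0.30 with DESeq2, -0.31 with its size factors, -0.30 with no filter, and -0.36 and -0.37 under those limits. At 4 h against control it was -0.039 at a limit of 5 and -0.036 at a limit of 20 reads. Equally abundant protein-coding genes were called in 26.7% at 2 h without exon overlap, in 24.1% at 4 h against 2 h without it, and in 21.2% there with 10 bands.

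The replicate numbers are shared between groups, and deviations of same-numbered libraries correlated at -0.09, 0.07 and -0.02. What a number marks is not in the labels, and these values cannot settle it. With a replicate block 36 LINC genes were called at 2 h, 0 at 4 h and 34 at 4 h against 2 h. The shares of all genes called with that block were 29.7%, 0.037% and 25.9%. With a control library left out, its lone partner is assumed to vary like the other groups. The cause of these shifts was not tested. Low abundance limits precision: 72 of the 179 genes averaged at most 1 CPM.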
